A study of Rattus norvegicus with 36 samples.

Results

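The genes of the epithelial and phagocyte NADPH oxidases were followed in rat lungs after instillation of DQ-12, a crystalline silica dust. They were the 8 genes Duox1, Duox2, Duoxa1, Duoxa2, Cybb, Cyba, Ncf1, and Ncf4, taken as every non-control probe that carries one of these gene names on the array. They were represented by 10 of the 45598 probes and 8 of the 25597 gene names on the array, with 2 probes each for Cybb and Ncf1. At 13 weeks of age, female Sprague Dawley rats were instilled through the trachea with a saline suspension holding 10 mg of DQ-12 (labelled High), or with saline alone (vehicle, labelled Control). RNA of the accessory lung lobe was measured 1, 30, and 180 days later (D1, D30, and D180), with 6 rats per group and 1 single-color array per rat, 36 arrays in all. Every rat was instilled and none was left untreated, so the vehicle animals carry the effect of the instillation itself.

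NADPH oxidases move electrons from NADPH across a membrane to oxygen and so make superoxide or hydrogen peroxide. DUOX1 and DUOX2 are the dual oxidases of epithelia, which release hydrogen peroxide at the airway surface and need the maturation factors DUOXA1 and DUOXA2 to leave the endoplasmic reticulum. The phagocyte oxidase is built around a membrane heterodimer of the catalytic subunit gp91phox (Cybb) and its stabilizing partner p22phox (Cyba). It is switched on when cytosolic subunits, among them the organizer p47phox (Ncf1) and p40phox (Ncf4), join it at the phagosome or plasma membrane. In lung, the phagocyte enzyme is known from neutrophils and macrophages, and the dual oxidases from airway and alveolar epithelium.

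The dual oxidase genes lie side by side, and the sequences between them are shown because the members of each DUOX/DUOXA pair start head to head. In the RefSeq annotation of GRCr8, Duox2 occupies chr3:129680543-129698886 on the minus strand, Duoxa2 chr3:129698938-129702656 on the plus strand, Duoxa1 chr3:129703416-129714110 on the minus strand, and Duox1 chr3:129714125-129749186 on the plus strand. The strand of Duoxa2 was read from the direction of its array probe. The outermost annotated starts were 51 bases apart for Duox2 and Duoxa2, and 14 bases apart for Duoxa1 and Duox1. The lines give the plus strand, with these stretches in capitals and 30 bases on each side in lower case, at chr3:129698857-129698967 and chr3:129714081-129714154.
Duox2/Duoxa2: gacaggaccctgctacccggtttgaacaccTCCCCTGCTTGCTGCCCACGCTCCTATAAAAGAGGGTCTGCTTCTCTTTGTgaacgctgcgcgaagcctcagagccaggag
Duoxa1/Duox1: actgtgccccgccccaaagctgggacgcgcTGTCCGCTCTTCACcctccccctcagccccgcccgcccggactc
The Duox2/Duoxa2 stretch held the TATA box letters TATAAA, which occurred in the promoter windows (250 bases before to 50 after the start) of 14.2% of 33469 RefSeq genes (either strand). The Duoxa1/Duox1 line was richer in G and C (74.3% against 58.6%) and held 7 CG dinucleotides against 5. The GC box letters GGGCGG, present in 33.1% of all windows, were in the windows of Duox2 and Duoxa1. They were not in the window listed for Duox1. The Duoxa1/Duox1 line does hold their reverse, CCGCCC, on both sides of its capitals, so the window listed for Duox1 does not hold this whole stretch. Among these 3 windows, TATAAA was in that of Duox2 only.

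The 4 phagocyte oxidase genes lie apart from each other, Cybb at chrX:16030596-16065065, Cyba at chr19:67396143-67404214, Ncf1 at chr12:28121816-28131080, and Ncf4 at chr7:111705926-111723893. The 100 bases before the starts of Cybb (chrX:16065066-16065165) and Cyba (chr19:67404215-67404314) are given on the coding strand, since these genes encode the partners of the membrane heterodimer and their changes were unequal. Capitals mark the searched motifs on either strand. These were the TATA box above, the CCAAT box, the GC box, and the purine-rich motif GAGGAA, a binding motif of ETS family factors.
Cybb: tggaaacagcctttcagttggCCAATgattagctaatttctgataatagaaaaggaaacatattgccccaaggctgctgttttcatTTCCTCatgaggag
Cyba: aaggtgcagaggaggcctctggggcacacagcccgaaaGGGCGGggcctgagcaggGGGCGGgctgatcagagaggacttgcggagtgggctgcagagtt
The Cybb stretch was 40.0% G and C with 0 CG dinucleotides, and held CCAAT (37.5% of all windows) and GAGGAA (27.6%). The Cyba stretch was 67.0% G and C with 4 CG dinucleotides, and held GGGCGG at 2 places. These are matches of letters, and no binding was measured. Of the 8 genes, 6 had a window in the promoter table.

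Signals are given as normalized log2 intensities, and a change is the log2 fold change (log2 FC) of DQ-12 over vehicle with its standard error. It was tested with limma over 23940 genes, with the false discovery rate of Benjamini and Hochberg controlled for each comparison separately. The lobe carried a lung signature on these arrays, with every gene of the alveolar type 2 and type 1 marker lists well above background in each group. Between 51.4 and 75.5% of the probes were well above background on an array. The arrays were scanned on 11 dates. At D1 the 6 DQ-12 arrays shared a date with only 1 vehicle array, whereas 2 dates at D30 (4 vehicle and 1 DQ-12 arrays, and 2 and 5) and 2 dates at D180 (3 and 3, and 1 and 1) held both groups. The lobe is a mixture of cells, in which more cells of a type and more RNA per cell cannot be told apart.

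The oxidase genes changed little at D1, and most of them were higher at D180. All 8 passed the filter on dim probes. With an adjusted p under 0.05, 1 of the 8 was higher at D1 (Ncf4), 4 at D30 (Duox1, Duoxa1, Cyba, and Ncf4), and 6 at D180 (all but Duox2 and Duoxa2). Over all genes tested, 7.58% were higher at D1, 2.74% at D30, and 7.82% at D180, and 8.62, 1.24, and 9% were lower. None of the 8 genes was called lower at any time point. When a 2-fold change was required too, 0 of the 8 were differentially expressed genes (DEGs) at D1, 1 at D30, and 5 at D180, when 2.02, 0.915, and 2.86% of all genes were DEGs with higher signal. At D1, 3 of the 8 had an unadjusted p under 0.05. Over the 8 genes, log2 FC had a median of 0.32 at D1, 0.55 at D30, and 1.05 at D180, whereas over all genes it was -0.01, -0.02, and -0.03. All 6 exposed animals lay above all 6 vehicle animals for 1 gene at D1, 3 at D30, and 5 at D180, as they did for 5.25, 1.81, and 3.85% of all genes.

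**Figure D1:**
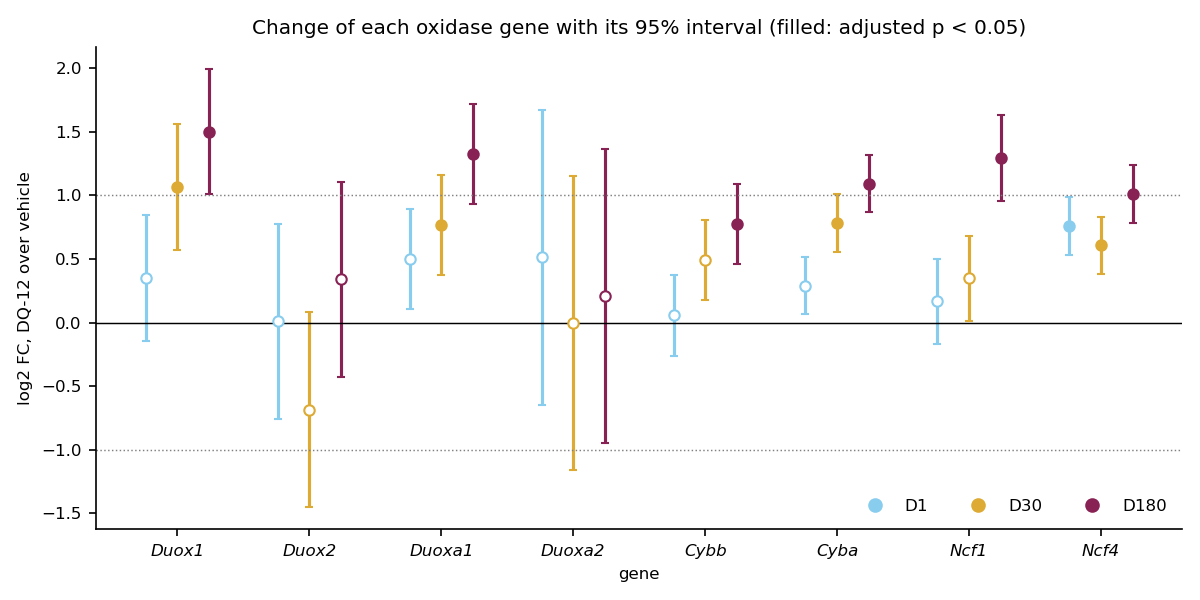
Log2 FC (DQ-12 over vehicle, y axis) of each of the 8 oxidase genes (x axis) at D1, D30, and D180, with 95% intervals from limma over 6 rats per group. Filled points had an adjusted p under 0.05, dotted lines mark a 2-fold change, and 6 genes were called at D180 against 1 at D1.

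Duox1, the catalytic dual oxidase, rose at D30 and D180. At D1 its signal ranged from 7.75 to 8.92 (median 8.24) in vehicle animals and from 8.16 to 9.07 (median 8.79) in exposed animals. The groups overlapped, and the change of 0.35 ± 0.24 (SE) was not called (adjusted p = 0.360). Against the 1 vehicle array of the same scan date, the D1 change was 0.70. At D30 the vehicle animals lay between 8.46 and 9.12 (median 8.58) and the exposed animals between 9.19 and 10.42 (median 9.60). The D180 vehicle animals lay between 8.08 and 8.98 (median 8.44), below the exposed animals at 9.23 to 10.86 (median 10.03). The groups no longer overlapped at these time points, and each exact permutation p was 0.00216, the smallest that 924 splits of 12 arrays allow. The changes were 1.07 ± 0.24 at D30 (2.10-fold, adjusted p = 0.00715) and 1.502 ± 0.242 at D180 (2.83-fold, adjusted p = 2.47e-05). Within the scan dates that held both groups, they were 1.56 and 0.82 at D30, and 1.45 and 2.09 at D180. Duox1 belongs to the signature that the study chose partly on these rats at the later time points, so its rise there is not independent evidence.

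Duoxa1, the maturation factor that starts beside Duox1, rose at the same time points. At D30 its signal was 7.64 to 8.32 (median 7.67) in vehicle animals and 8.18 to 9.35 (median 8.52) in exposed animals, 4 of which lay above every vehicle rat. The change was 0.77 ± 0.19 (1.71-fold, adjusted p = 0.0167). It was not called when D30 was fitted alone (adjusted p = 0.0747). At D180 the ranges of 7.44 to 8.16 (median 7.62) and 8.40 to 9.64 (median 9.02) did not overlap, and the change was 1.32 ± 0.19 (2.502-fold, adjusted p = 5.70e-06). At D1 it was 0.50 ± 0.19 (adjusted p = 0.0721), and this passed the threshold in 2 of the 12 fits that left out a D1 rat (vehicle rat 1, adjusted p = 0.0435, or exposed rat 5, adjusted p = 0.0447).

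The signals of Duox2 and Duoxa2, the other dual oxidase and its maturation factor, stayed at the bottom of the scale. Duox2 was well above background on 0 DQ-12 arrays and on 1 vehicle array, at D180. Its signal ranged from 1.89 to 4.14 over the vehicle animals and from 1.93 to 3.69 over the exposed animals of all time points. Duoxa2 was well above background on 1 to 3 of the 6 arrays of each group, with signals between 2.08 and 6.44. Neither gene was called, and the groups overlapped at every time point. The 95% intervals of the log2 FC ran from -0.76 to 0.78, -1.45 to 0.08, and -0.43 to 1.11 for Duox2 at D1, D30, and D180. For Duoxa2 they ran from -0.65 to 1.67, -1.16 to 1.16, and -0.95 to 1.37. Changes within these intervals remain compatible with the signals of these genes, most of which were not well above background. The Duox1 probe lies at chr3:109128329-109128388 and the Duox2 probe at chr3:109059633-109059692 in the array's own build, rn4.

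**Figure D2:**
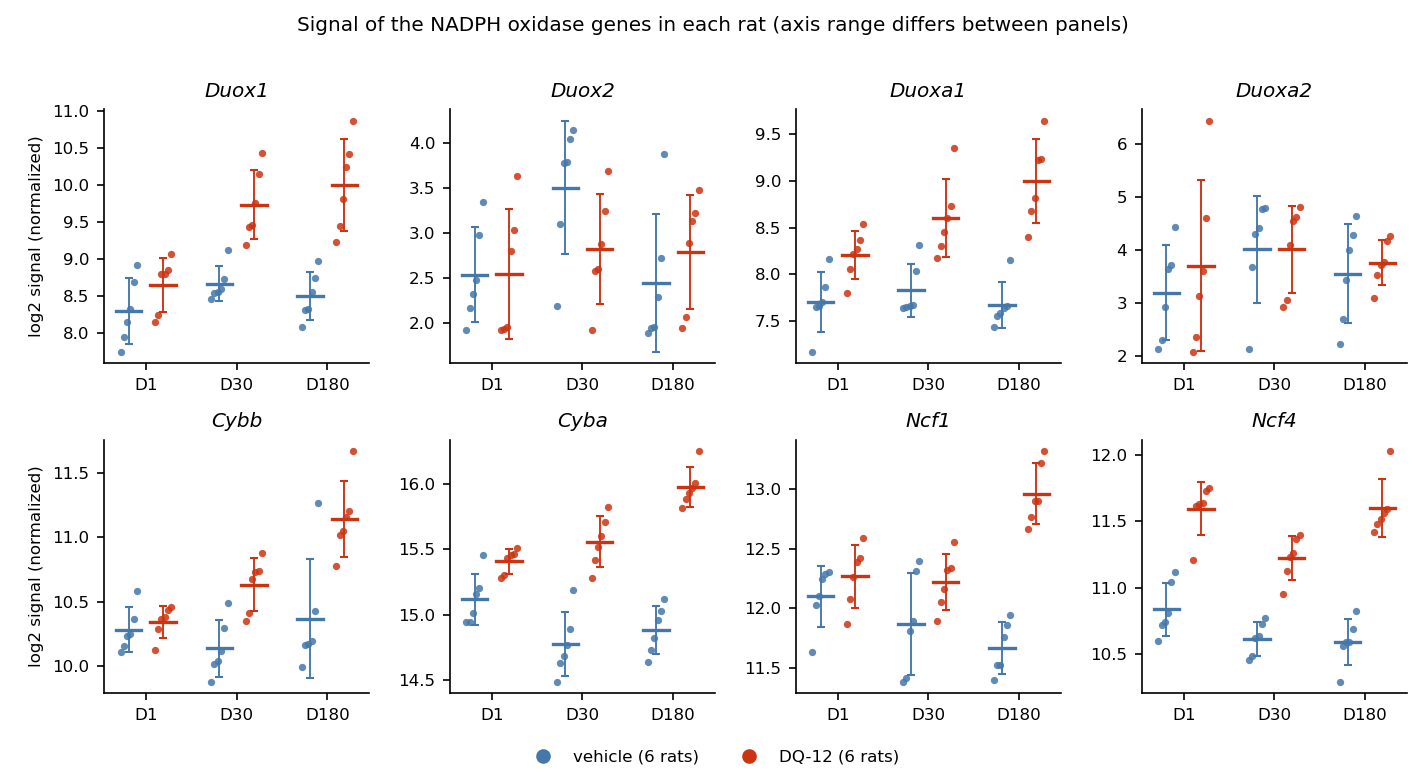
Normalized log2 signal (y axis, range differs between panels) of the 8 genes in each rat at D1, D30, and D180 (x axis), with the mean and SD of the 6 vehicle and 6 exposed animals. Duox1 and Cyba separate at D30 and D180, Duoxa1 and Ncf1 at D180, and Ncf4 at all time points, whereas Duox2 and Duoxa2 overlap throughout.

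Cyba, the stabilizing partner of gp91phox in the membrane heterodimer, rose at D30 and D180. Its probe is spotted 10 times on the array. At D1 the vehicle animals ranged from 14.94 to 15.45 (median 15.08) and the exposed animals from 15.28 to 15.51 (median 15.44). The change at D1 was 0.29 ± 0.11 (adjusted p = 0.0699), was called with 75th percentile scaling (0.47, adjusted p = 0.0190), and was -0.04 against the vehicle array of the same scan date. At D30 the vehicle animals reached from 14.49 to 15.19 (median 14.72), and the exposed animals from 15.28 to 15.82 (median 15.56). The D180 values were 14.64 to 15.12 (median 14.89) for vehicle, and 15.81 to 16.25 (median 15.95) for DQ-12. The groups did not overlap at either time point. The changes were 0.78 ± 0.11 (1.72-fold, adjusted p = 1.98e-05) at D30 and 1.09 ± 0.11 (2.13-fold, adjusted p = 8.63e-09) at D180. Within scan dates they were 0.58 and 0.70 at D30, and 1.03 and 1.24 at D180.

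Cybb, the catalytic subunit that pairs with Cyba, was called at D180 only. At D180 the vehicle animals ranged from 9.99 to 11.26 (median 10.18) and the exposed animals from 10.78 to 11.67 (median 11.10). The overlap came from vehicle rat 5 at 11.26, since the other vehicle animals reached 10.43 at most. The change was 0.78 ± 0.16 (1.71-fold, adjusted p = 4.24e-04), below the 2-fold threshold, and 0.95 without that rat. The change was 0.06 ± 0.16 (adjusted p = 0.854) at D1 and 0.49 ± 0.16 (adjusted p = 0.0702) at D30, when 4 of 6 exposed animals lay above every vehicle rat. The D30 value passed the threshold without vehicle rat 4 (0.56, adjusted p = 0.0326) or without exposed rat 5 (0.55, adjusted p = 0.0339). The dimmer Cybb probe gave 0.02, 0.45, and 0.81 at D1, D30, and D180, and was also called at D180 alone (adjusted p = 0.00116 over all named probes).

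Ncf4, the cytosolic subunit p40phox that binds phosphoinositide on the phagosome, was higher at every time point. At D1 its signal was 10.60 to 11.12 (median 10.77) in vehicle animals and 11.21 to 11.75 (median 11.63) in exposed animals. The ranges did not overlap at D30 either, with 10.45 to 10.77 (median 10.63) and 10.95 to 11.40 (median 11.25), nor at D180, with 10.29 to 10.82 (median 10.59) and 11.42 to 12.03 (median 11.54). The changes were 0.76 ± 0.11 (1.69-fold, adjusted p = 8.59e-06) at D1, 0.61 ± 0.11 (1.52-fold, adjusted p = 6.46e-04) at D30, and 1.01 ± 0.11 (2.02-fold, adjusted p = 3.92e-08) at D180. Against the 1 vehicle array of its own scan date the D1 change was 0.48, and blocking on scan date left it uncalled (adjusted p = 0.296). The part of the scan date in the D1 value was not tested beyond this.

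Ncf1, the organizer p47phox, rose at D180 and was not called at D1 or D30. At D1 the vehicle animals ranged from 11.63 to 12.30 (median 12.17) and the exposed animals from 11.87 to 12.59 (median 12.33). At D30 the ranges were 11.38 to 12.40 (median 11.85) and 11.89 to 12.56 (median 12.24), and the groups overlapped at both time points. The changes were 0.17 ± 0.16 (adjusted p = 0.550) and 0.35 ± 0.16 (adjusted p = 0.288). At D180 the exposed animals lay between 12.67 and 13.32 (median 12.90), all above the vehicle animals at 11.40 to 11.94 (median 11.64). This change was 1.29 ± 0.16 (2.45-fold, adjusted p = 5.52e-07), and 1.19 and 1.24 within scan dates. The second Ncf1 probe gave 0.31, 0.46, and 1.11, with a call at D180 (adjusted p = 6.15e-07) and none at D1 (0.137) or D30 (0.0622).

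**Figure D3:**
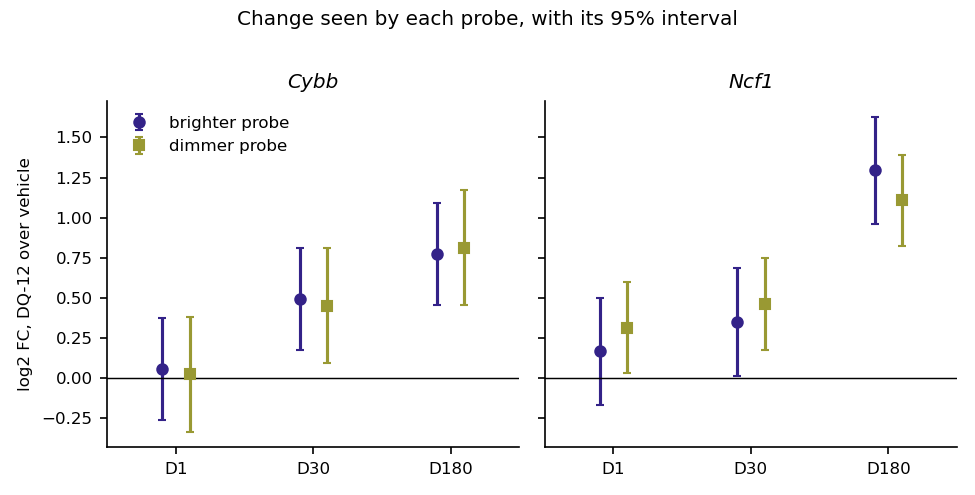
Log2 FC (y axis) with its 95% interval at D1, D30, and D180 (x axis) for the brighter and the dimmer probe of Cybb and Ncf1, over 6 vehicle and 6 exposed animals. The intervals of the probes of a gene overlap at each time point, with 0.78 and 0.81 for Cybb and 1.29 and 1.11 for Ncf1 at D180.

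An interaction in the same model asked whether the change was unequal at the 3 time points. Between D1 and D180 it was larger at D180 for 3 of the 8 genes, against 2.6% of all genes tested. The difference in log2 FC was 1.15 ± 0.34 for Duox1 (adjusted p = 0.0465), 0.80 ± 0.16 for Cyba (adjusted p = 0.00196), and 1.13 ± 0.23 for Ncf1 (adjusted p = 0.00341). It was 0.72 ± 0.22 for Cybb (adjusted p = 0.0543) and 0.25 ± 0.16 for Ncf4 (adjusted p = 0.397). Blocking on scan date, Cyba (1.13, adjusted p = 0.0149) and Cybb (1.11, adjusted p = 0.00252) were called, and Duox1 (adjusted p = 0.463) and Ncf1 (adjusted p = 0.280) were not. By limma 0 of the 8 genes differed between D1 and D30 or between D30 and D180, with 2 at an unadjusted p under 0.05 in each case. Ncf1 came closest for the later step (0.95 ± 0.23, adjusted p = 0.0643). Over all genes, 2.18% differed between D1 and D30 and 0.246% between D30 and D180.

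Partner genes were compared within each rat, as the difference of their log2 signals, with 12 exact permutation tests (4 pairs at 3 time points) adjusted together. This asks whether partners changed by unequal amounts and does not compare the levels of different probes. Cybb gained less than Cyba. The difference, Cybb minus Cyba, was lower in exposed animals by 0.23 at D1 and by 0.29 at D30 (exact permutation p = 0.00216 and 0.00649, adjusted p = 0.0260 for both). At D1 it ranged from -4.90 to -4.71 in vehicle animals and from -5.17 to -4.99 in exposed animals, without overlap. At D180 the difference was -0.32 and was not called (adjusted p = 0.286). Within the 5 scan dates that held both groups, it was lower in exposed animals each time, by between -0.20 and -0.41.

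Ncf1 gained less than Ncf4 at D1. The difference, Ncf1 minus Ncf4, was -0.59 at D1 (exact permutation p = 0.00433, adjusted p = 0.0260), -0.26 at D30 (adjusted p = 0.286), and 0.28 at D180 (adjusted p = 0.0584). At D1 it ranged from 0.91 to 1.59 in vehicle animals and from 0.13 to 0.96 in exposed animals. Against the vehicle array of the same scan date it was -0.24. Duox1 and Duoxa1, the head-to-head pair, were not shown to change by unequal amounts, with differences of -0.15, 0.30, and 0.18 at D1, D30, and D180 (adjusted p = 0.395, 0.286, and 0.286).

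**Figure D4:**
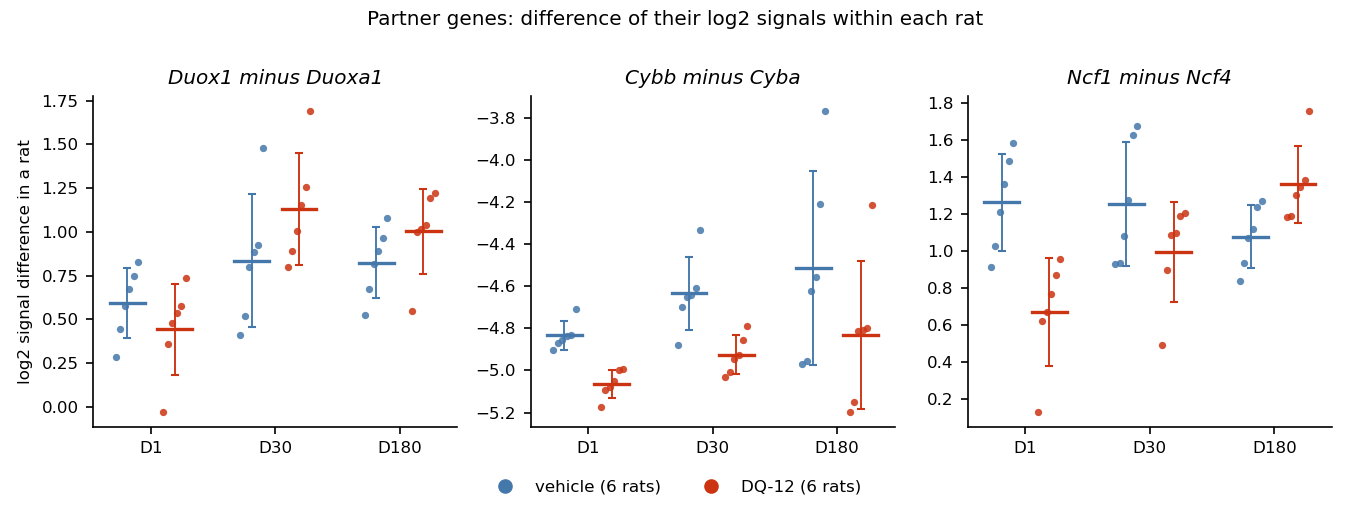
Difference of the log2 signals of partner genes within each rat (y axis) at D1, D30, and D180 (x axis), with the mean and SD of the 6 vehicle and 6 exposed animals. Cybb minus Cyba was lower in exposed animals at D1 and D30, and Ncf1 minus Ncf4 at D1.

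Among 15 other subunits and regulators of NADPH oxidases, 1 was higher at D1 and 1 at D30, and 5 were higher and 2 lower at D180. Of all genes tested, 7.58, 2.74, and 7.82% were higher at D1, D30, and D180, and 8.62, 1.24, and 9% lower. The 1 gene at D1 was near that share, and the same shares apply to the lists below. Over the list, log2 FC had a median of 0.13, 0.08, and 0.29. Noxo1, the organizer of the NOX1 system and a counterpart of p47phox, rose by 1.70 ± 0.25 at D30 (adjusted p = 3.79e-05) and 1.65 ± 0.25 at D180 (adjusted p = 1.04e-05), and the groups did not overlap at either. Its catalytic partner Nox1 was not called, with 0.09 and 0.38 at these time points. Noxa1, the activator counterpart, was the gene called at D1 (0.60 ± 0.20, adjusted p = 0.0352). At D180 the voltage-gated proton channel Hvcn1, which balances the charge moved by the phagocyte oxidase, rose by 1.16 ± 0.22, and Vav1, an exchange factor for RAC, by 0.87 ± 0.13. The others called at D180, named after their values were seen, were the leukocyte GTPase Rac2 (0.66), Cybc1, a chaperone of the Cybb/Cyba heterodimer (0.72), and, in the other direction, Nox4 (-0.49) and the GTPase Rap1a (-0.41). Blocking on scan date, 0, 1, and 6 of the 15 passed at D1, D30, and D180.

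Of 7 peroxidases (those of leukocytes included) and halide transporters, 2 were higher at each time point and 1 was lower at D180. Lpo, lactoperoxidase, which spends hydrogen peroxide on thiocyanate at the airway surface, ranged from 6.00 to 7.87 in vehicle animals at D180 and from 10.05 to 12.53 in exposed animals. Its changes were 0.20 ± 0.34 (adjusted p = 0.7503), 1.86 ± 0.34 (adjusted p = 6.99e-04), and 4.74 ± 0.34 (adjusted p = 7.74e-12) at D1, D30, and D180. Slc26a4, the anion exchanger pendrin, rose by 4.03, 4.52, and 5.22 ± 0.33. At D1, Slc5a5, the sodium iodide symporter, was well above background on 0 vehicle and 5 DQ-12 arrays, and at least 2.66-fold higher in exposed animals (adjusted p = 0.00234). Blocking on scan date, Slc26a4 was still called at D1 (3.13, adjusted p = 0.00140) and Slc5a5 was not (adjusted p = 0.652). Ano1, a calcium-activated chloride channel, fell by 0.59 at D180 (adjusted p = 5.43e-04).

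Of 14 enzymes that remove superoxide and peroxide, 6 were higher and 1 lower at D1, 2 were higher at D30, and 4 were higher and 2 lower at D180. At D1 these included the peroxiredoxin Prdx1 (0.70 ± 0.17), the epithelial glutathione peroxidase Gpx2 (0.61 ± 0.13), the mitochondrial peroxiredoxin Prdx3 (0.49 ± 0.09), and the extracellular dismutase Sod3 (-0.49 ± 0.13). Blocking on scan date, 0 of the 14 passed at D1, 1 at D30, and 7 at D180. The mitochondrial dismutase Sod2 rose by 0.93 ± 0.19 at D30 and 1.07 ± 0.19 at D180, and Prdx5 by 0.66 ± 0.12 and 1.26 ± 0.12. Prdx1 was called at D180 too (0.63 ± 0.17). The 2 enzymes lower at D180, named after their values were seen, were Sod3 (-0.59 ± 0.13) and Gpx3 (-0.61 ± 0.21).

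**Figure D5:**
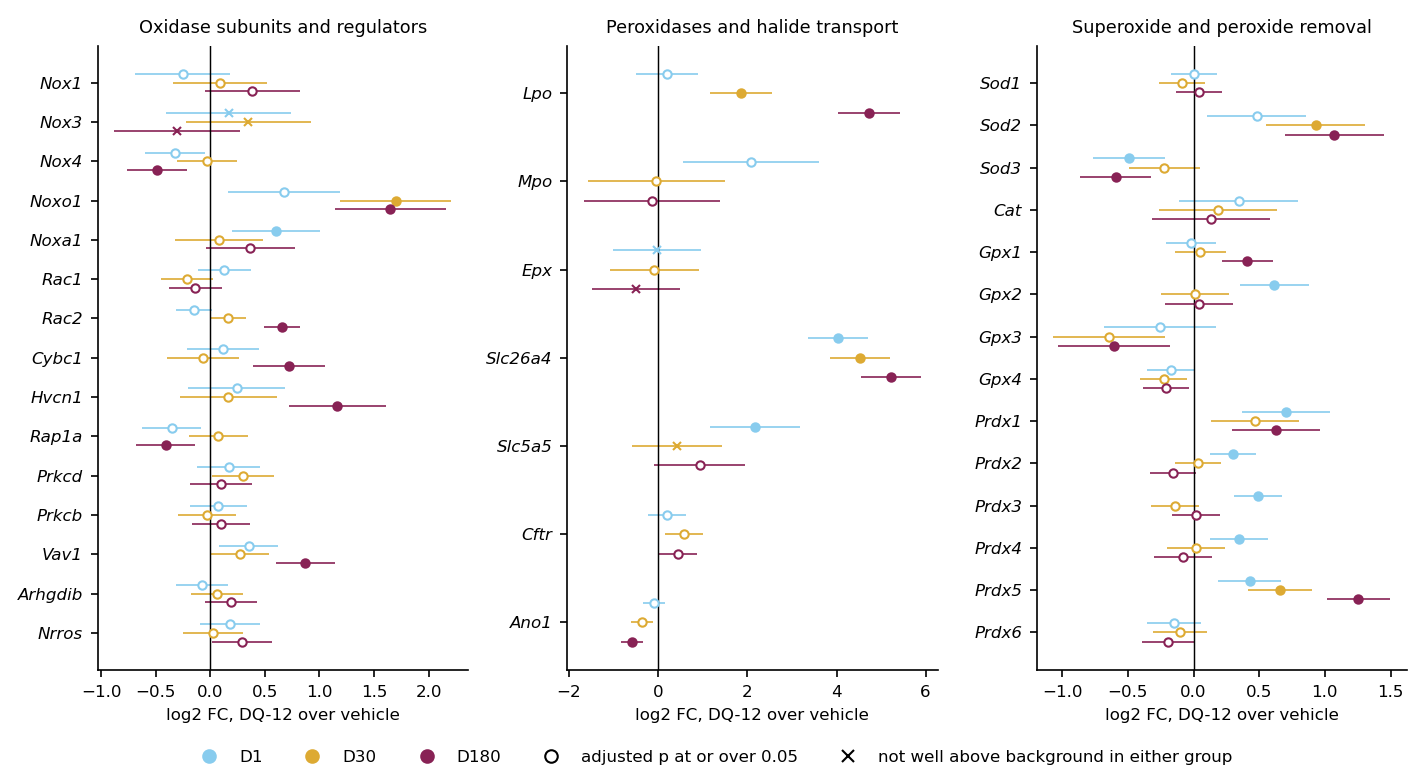
Log2 FC (x axis) with its 95% interval at D1, D30, and D180 for 15 other oxidase subunits and regulators, 7 peroxidases and halide transporters, and 14 enzymes that remove superoxide and peroxide. Filled circles had an adjusted p under 0.05, and crosses were well above background in neither group. Noxo1, Lpo, and Slc26a4 had the largest called changes at D180 in the first 2 lists.

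Some markers of phagocytes were higher at D30 and D180, others were lower or not called. Their counts stand beside 7.58, 2.74, and 7.82% of all genes higher at D1, D30, and D180, and 8.62, 1.24, and 9% lower. Of 10 macrophage markers, 2 were higher and 1 lower at D1, 4 were higher at D30, and 4 higher and 2 lower (Cd163, -0.89, and Mertk, -0.41) at D180, with a median log2 FC of 0.13, 0.10, and 0.53. Their summed linear signal at D180 was 7984 to 11481 in vehicle animals and 17461 to 28374 in exposed animals. Cd68 weighs most in this sum, with D180 means of 12.49 (vehicle) and 14.05 (DQ-12) log2 units, the highest of the list. The scavenger receptor Marco was well above background on 0 vehicle arrays at D30, where it was at least 3.14-fold higher, and changed by 2.62 at D180. Siglec1 (2.04 at D30 and 1.96 at D180), Cd68 (1.16 and 1.55), and Fabp4 (1.12 and 2.53) were called at both too, whereas the pan-macrophage marker Adgre1 changed by 0.15 and 0.13 and was not. At D1, Siglec1 (0.79) and Fabp4 (0.88) were higher and Mertk (-0.67) lower. Of 10 neutrophil markers, 1 was higher at D1 (Csf3r, 1.41), 2 at D30 (S100a9, 1.93, and S100a8, 1.096), and 4 at D180 (with S100a9 at 2.57, S100a8 at 1.56, and Cxcr2 at 1.55). The neutrophil list had a median of 0.39, 0.17, and 0.83. S100a8 and S100a9 made up 71.1 to 95.4% of its summed signal on an array, which was 8966 to 19384 against 24271 to 64003 at D30 and 10956 to 19150 against 50145 to 72692 at D180. Elane, a granule enzyme of neutrophil precursors, was well above background on no array. Of 5 B cell markers, 0 were called at any time point. By limma the B cell medians were -0.29, -0.40, and 0.02. The part of these cells in the oxidase values was not tested.

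Epithelial markers moved in several directions. Their counts stand beside 7.58, 2.74, and 7.82% of all genes higher at D1, D30, and D180, and 8.62, 1.24, and 9% lower. Of 8 airway secretory markers, 1 was higher and 2 lower at D1, 1 was higher at D30, and 1 higher and 1 lower at D180. Their summed signal was 200290 to 237460 in vehicle animals and 153970 to 190700 in exposed animals at D1, and 166360 to 229630 against 123920 to 192440 at D180. Scgb1a1 and Scgb3a2 weigh most in this sum, with means of 16.77 and 15.97 log2 units in D1 vehicle animals, the highest of the list. The secretory gene Bpifb1 rose by 1.62 at D30 and 2.80 at D180, the mucin Muc5b was higher at D1 (1.17), and the club cell enzyme Cyp2f4 fell by 1.08 at D1 and 0.72 at D180. At D1, Muc5b was well above background on only 2 of 6 vehicle arrays and 5 of 6 DQ-12 arrays. Scgb3a2 fell by 0.41 at D1, and Scgb1a1, the defining club cell marker, was not called (-0.35, -0.33, and -0.11). Of 5 ciliated cell markers, 1 (Tekt1, -0.41) was lower at D30 and 0 were called at D1 or D180. Of 8 alveolar type 2 markers, 1 was higher and 1 lower at D1, 3 were higher at D30, and 4 at D180, among them Sftpa1 (0.48, 0.49, and 0.47). Sftpc, which defines these cells, stood at the top of the quantile scale (18.42) in all vehicle animals, where a rise cannot be seen. Of 6 alveolar type 1 markers, 3 were lower at D1, 1 at D30, and all 6 at D180, among them Rtkn2 (-0.75) and Ager (-0.42). Of 5 general epithelial markers, 1 was higher at D1 (Epcam, 0.30) and 1 lower at D30 and D180 (Krt19, -0.60 and -0.54). The part of epithelial composition in the Duox1 and Duoxa1 values was not tested.

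As a description, genes were ranked by the mean absolute difference between their 6 group means and those of an oxidase gene, after centering each gene, among 14047 genes well above background on all 36 arrays. The genes closest to Duox1 were Cxadrl1, Icos, Cxcr2, Ttyh2, and Il2ra (0.07 to 0.10 log2 units). Those closest to Cybb were Fcgr2a, Cited2, Itga4, Ly96, and Sidt2 (0.04 to 0.05). Those closest to Duox2 were Zfand4, RGD1561157, Stat5b, Glycam1, and Styx (0.12 to 0.14), although the group means of Duox2 were those of a probe near background.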

How the data were processed

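Lung RNA of 36 rats was measured on Agilent single-color arrays, 1 rat per array. The authors extracted the deposited intensities with Feature Extraction 12.0.1.1, which subtracts background, and per the file headers the probes were placed on the rn4 build. The authors' deposited log2 values equal these intensities scaled to the 75th percentile of each array (median absolute difference 0.00177, r = 0.99997), and served as an alternative. Here, outlier spots by the scanner's flags were removed (232 to 596 per array), spots of a probe averaged on the log2 scale, probes kept if above the 95th percentile of 308 negative controls on at least 6 arrays, and the rest quantile normalized. The probe with the highest mean signal stood for a gene. A model of 6 group means was fitted in limma 3.58.1 (R 4.3.3), since the study's methods name limma and quantile normalization. They also name a batch correction without its variable, so batch entered as alternatives only. The fit used 2-sided tests, Benjamini–Hochberg adjustment over all genes, and a DEG threshold of adjusted p under 0.05 and FC of at least 2. Differences between time points were interactions in that model. Each exact permutation test used all 924 splits of 12 arrays. Precision is limited by the number of arrays. The p-values weigh a difference against the spread between arrays, in which rat, slide, and scan date are mixed.

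The members and lists were chosen with earlier results of these data known. Named were all 8 genes with every probe, of each list the 3 genes with the largest absolute change among those called at each time point, the first 2 genes of a marker list, and the 5 genes of most similar profile. 1 further gene of the oxidase list is not reported here. A fold against a group in which 0 arrays measured the probe well above background is a lower bound, taken against the dimmest well-measured probe of each array or the probe's own value, whichever was higher. Alternatives changed the background correction (normexp, offset 50), normalization, filter, probe rule, model, batch terms (slide, scan date), and the arrays included. The fits were tested on simulated data with independent arrays. These held no slide or scan date effect, so they say nothing about batch. Genomic sequences came from the RefSeq tables of GRCr8, not from the array's build. Plots used matplotlib 3.10.9.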

Additional observations from a re-analysis of the deposited data

Results flagged for a closer look

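In 4 of 48 groups of 6 rats (8 genes in 6 groups), 1 rat stood apart from the other 5 by Dixon's criterion, which flags about 1 in 20 groups by chance. Vehicle rat 5 at D180 was high for Cybb (11.26, next rat 10.43) and for Duoxa1 (8.16, next rat 7.66). On the second Cybb probe it also read highest of the vehicle rats, at 8.85. Its summed macrophage markers were 11481, against 7984 to 9907 in the other vehicle rats of D180, and its summed neutrophil markers 10956, against 11164 to 19150. No other array shared its slide or scan date, so rat and batch cannot be told apart in its values. The cause of these values was not tested. Ncf4 was low in exposed rat 5 at D1 (11.21, next rat 11.62) and high in exposed rat 2 at D180 (12.03, next rat 11.60).

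The change differed between D1 and D180, by an interaction test in limma, for Duox1 (1.15), Cyba (0.80), and Ncf1 (1.13). All 3 differences were larger at D180. Duox1 was not called with scan date as a fixed block (adjusted p = 0.463), or with slide or scan date as a random block (0.134 and 0.145), and Ncf1 was not called with scan date as a fixed block (0.280). Cyba was called in these fits, and with slide as a fixed block 0 of the 3 were.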

How the results depend on the processing

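No called change of an oxidase gene reversed its direction under any alternative run. The number of the 8 genes called at D1 was 1, and 2 with normexp, with 75th percentile scaling, with the deposited log2 values, with the stricter filter on dim probes, or with trend and robust moderation, and 0 with slide or scan date as a fixed block. At D180 it was 6 except with slide as a fixed block, which compares the groups through 1 array each and left 1 call and 0 DEGs. DEGs at D30 numbered 1, but 0 with normexp and 2 with scan date as a fixed block. With an FC of 1.5, 1 gene was a DEG at D1 and 4 at D30. The genes whose change differed between D1 and D180 numbered 3, and 0 with slide as a fixed block. With slide or scan date as a random block, Cybb was called in place of Duox1, and scan date as a fixed block changed the genes called too. Between D30 and D180 the genes whose change differed numbered 0, and 1 with normexp, the stricter filter, the replicate block, or trend and robust moderation. Between D1 and D30, slide as a random block gave 1. The cause of these shifts was not tested.

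With 1 rat left out, the calls numbered 1 to 2 at D1, 4 to 5 at D30, and 6 to 6 at D180, and the DEGs 0 to 0, 0 to 1, and 4 to 5. Cyba at D1 was called without vehicle rat 3 (0.36), and Duox1 at D30 fell below 2-fold (0.93 or 0.99) without exposed rat 1 or 5. Changes that differed between D1 and D30 numbered 0 to 1, between D30 and D180 0 to 1, and between D1 and D180 2 to 4, and unequal partners 3 to 4. The replicate block changed no other count by over 1.5 times. Same-numbered rats share only a number, since their deviations did not move together (correlations of -0.13 to 0.22), and 1, 1, and 3 of 6 numbers at D1, D30, and D180 correlated best with their own. Partners numbered 3, and 4 with normexp.

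For the lists, scan date as a block (chosen after seeing the data) left 0 oxidase regulators at D1, 1 gene of peroxidases and halide transport at D1, and 0 and 1 enzymes of peroxide removal at D1 and D30. The calls of the cell type marker lists were not counted under this block. At D1 only 1 vehicle array shared the scan date of the DQ-12 arrays, and, leave-one-out and within-batch values aside, the D1 sign differed from the main one in 6 settings for Duox2, 4 for Cybb, 2 for Duoxa2, and 2 for Cyba. In those settings Cyba at D1 was called in 5 and was slightly negative, without a call, with slide or scan date as a fixed block (-0.08 and -0.04).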
